A study of Mus musculus with 4 samples.

Results

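The splicing machinery genes described here are the 75 entries, of 14519 in the expression table, whose symbols begin with Srsf, Sf3a, Sf3b, U2af, Prpf or Lsm and a digit, or with Hnrnp or Snrp. By role they are 11 Sm and other Snrp genes, 12 LSM genes, 13 PRPF genes, 11 SF3 and U2AF genes, 10 SR protein genes and 18 hnRNP genes. The rule reads symbols and not expression values, but it was set with earlier results of these data known. All 75 matched a gene of the GENCODE M21 annotation (build GRCm38) by symbol and chromosome. Relatives with other symbols, such as Snrnp70 and Ptbp1, are in lists of other pathway genes described further down.

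RNA came from epithelial cells sorted from the colon of mice that carried 2 fluorescent reporters. Cells positive for Reg4-dsRed, called deep crypt secretory (DCS) cells, gave 2 libraries, and cells positive for Lgr5-GFP, a reporter of crypt base stem cells, gave 2. Neither group was treated, and the age, sex, strain and number of mice behind a library are not stated in the sources used here. Per the design text, cells were sorted and libraries made in 2 rounds that serve as biological replicates, so the p-values measure the spread between these rounds. Sorting was by the reporter, so each library holds whichever cells carried it.

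CEL-seq reads the 3′ end of each transcript, and values are RPM, the reads of a gene per 1000000 reads in its library. The 2 Lgr5+ libraries held 5205723 and 7955340 reads. The values of each Reg4+ DCS column were averages over 2 parts scaled one by one, with 5523304 and 1890960 reads in replicate 1 and 3004289 and 2443971 reads in replicate 2. Reg4 was at 6187 and 5899 RPM in Reg4+ DCS and at 796 and 363 RPM in Lgr5+ cells, and Lgr5 at 0.989 and 3.13 against 46.5 and 48.8 RPM. All 8 goblet markers tested were higher in Reg4+ DCS, and 7 of 8 stem markers were higher in Lgr5+ cells. Of 14 markers of dividing cells 12 were higher in Lgr5+ cells, with a summed level of 537 and 591 RPM in Reg4+ DCS and of 2006 and 2102 RPM in Lgr5+ cells. Tuft cell markers summed to 2.30 and 1.98 RPM in Reg4+ DCS and to 1004 and 286 RPM in Lgr5+ cells. Il25, Pou2f3 and Ptgs1 were among those at 0 in both Reg4+ DCS libraries. The 6 tuft markers tested passed the filter of 5 RPM in 2 libraries only through their Lgr5+ values. That all 6 were higher in Lgr5+ cells was thus close to fixed in advance. Leukocyte markers summed to 1.36 and 1.17 against 49.6 and 15.7 RPM, and 6 of the 9 in the table, Ptprc among them, were at 0 in both Reg4+ DCS libraries. Absorptive cell markers (3 of 7 tested higher in Lgr5+ cells) summed to 130.0 and 79.8 against 892 and 195 RPM, and enteroendocrine markers (1 of 4) to 17.8 and 25.9 against 72.8 and 35.7 RPM, with Neurod1 and Scg5 at 0 in both Reg4+ DCS libraries. The part of dividing, tuft, immune, absorptive or enteroendocrine cells in the differences below was not tested, and in such sorted pools fewer cells of a type and less RNA per cell cannot be told apart.

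Introns are removed from precursor mRNA by the spliceosome, which is built anew on each intron from small nuclear ribonucleoproteins (snRNPs), each a small nuclear RNA with its proteins. The U1 snRNP recognises the 5′ splice site, U2AF and the U2 snRNP the 3′ end of the intron and its branch point, and the U4/U6.U5 tri-snRNP then brings in the parts that form the catalytic centre. SR proteins bind exons and mostly favour their inclusion, while hnRNP proteins coat the transcript and often oppose it. The lining of the colonic crypt is renewed from dividing stem and progenitor cells at its base, while DCS cells make secreted proteins such as mucins.

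In RPM as deposited, most splicing machinery genes had lower values in Reg4+ DCS than in Lgr5+ cells. The 75 together summed to 5831 and 7368 RPM in Reg4+ DCS and to 10672 and 12668 RPM in Lgr5+ cells. Of the 73 genes above the filter (at least 5 RPM in at least 2 libraries), 44 were higher in Lgr5+ cells at an adjusted p under 0.05 (limma, Benjamini-Hochberg over 10183 genes), which is 60.3%, against 26.9% of all genes tested. By the same test 0 were higher in Reg4+ DCS, against 7.18% of all genes, and 29 were not called. At an unadjusted p under 0.05 the counts were 58 and 0. Both Lgr5+ values lay above both Reg4+ DCS values in 66 of the 73 (56.2% of all genes), the groups overlapped in 7, and no gene had both Reg4+ DCS values on top (16.1% of all genes). Lsm12, Lsm14b, Prpf38b, Srsf5, Srsf6 and Hnrnph3 were among those that overlapped. The median log2 fold change, taken as Reg4+ DCS minus Lgr5+ of log2(RPM + 1), was -0.88 over the members and -0.47 over all tested genes, and 65 of the 73 members lay below the latter.

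**Figure D1:**
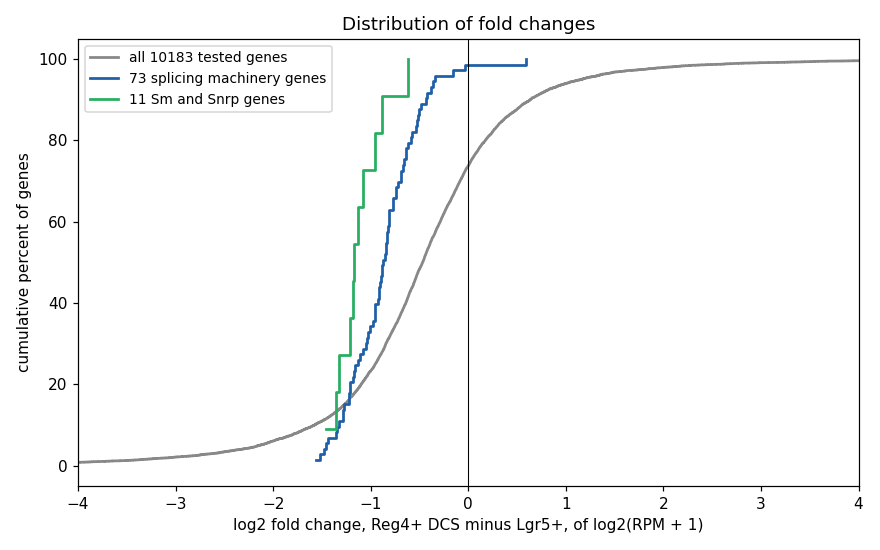
Cumulative percent of genes (y axis) by log2 fold change, Reg4+ DCS minus Lgr5+, of log2(RPM + 1) (x axis), for all tested genes (grey), the 73 tested splicing machinery genes (blue) and the 11 Sm and Snrp genes (green). The blue curve is steeper than the grey one and is centred at -0.88 against -0.47, and 72 of its 73 genes lie left of 0.

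How many members were called depended on the scaling. Genes with at least 1000 RPM in any library, 175 in number, held 51.8% and 45.2% of the RPM in Reg4+ DCS and 37.4% and 39.8% in Lgr5+ cells. Median-of-ratios scaling, which sets the typical gene to no change, moved the median of all tested genes from -0.47 to 0.02 and that of the members from -0.88 to -0.38. The members thus lay 0.41 below the typical gene on the first scale (difference of medians -0.41) and about as far on the second (difference -0.39). Such scaling divides each library by a single factor, so this gap could hardly change and is no separate result. After that scaling 8 of 73 members, 10.96%, were higher in Lgr5+ cells (12.7% of all genes), and 1, Lsm14b, was higher in Reg4+ DCS (15.6% of all genes). That share of members is close to the share of all genes. Log2 fold changes were then below 0 in 63 of 73 members and in 4988 of 10183 genes, against 72 and 7507 on RPM. The 8 were Lsm2, Lsm5, Lsm7, Prpf3, Prpf31, Prpf40b, Snrpa and Snrpa1. The count model edgeR on reads recovered from the RPM steps called these 8 and Lsm11, Snrpd1, Snrpd2 and Snrpe, 12 in all (13.4% of all genes). It called Lsm14b in the other direction (13.7% of all genes). Lsm11, Snrpd1, Snrpd2 and Snrpe only just passed, with adjusted p-values by edgeR of 0.0448 to 0.0495. With RPM recomputed without the 175 abundant genes, 23 members were higher in Lgr5+ cells (19.1% of all genes) and 0 in Reg4+ DCS (10.5%).

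Single libraries mattered too. Without Reg4+ DCS replicate 1 the test called 6 of 73 members higher in Lgr5+ cells (10.6% of all genes), and without Lgr5+ replicate 2 it called 24 of 72 (16.8%). The counts were 36 of 73 without Reg4+ DCS replicate 2 (23.0%) and 37 of 72 without Lgr5+ replicate 1 (17.3%). Replicate 2 exceeded replicate 1 in 61 of 73 members in Reg4+ DCS (73.6% of all tested genes) and in 52 of 73 in Lgr5+ cells (47.0% of all tested genes). In none of these 4 fits was a member called higher in Reg4+ DCS. The shares of all genes called so were 3.59% and 3.50% without Reg4+ DCS replicate 1 or 2, and 7.58% and 5.97% without Lgr5+ replicate 1 or 2. The parts of the Reg4+ DCS columns gave summed member levels of 6451 and 5210 RPM in replicate 1 and of 7044 and 7691 RPM in replicate 2, each below either Lgr5+ library. In 63 of the 73 tested members both Lgr5+ values exceeded all 4 parts. The share of all genes that did so was not computed. For whole columns, both Lgr5+ values lay above both Reg4+ DCS values in 56.2% of all tested genes. The genes called in each of the 4 fits that leave out a library, and also after median-of-ratios scaling and by edgeR, were Lsm2, Lsm5, Lsm7, Prpf31 and Snrpa, 5 in number. Sf3b4 was called in each of those 4 fits, but not after that scaling (adjusted p = 0.0811) or by edgeR (adjusted p = 0.0613).

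**Figure D2:**
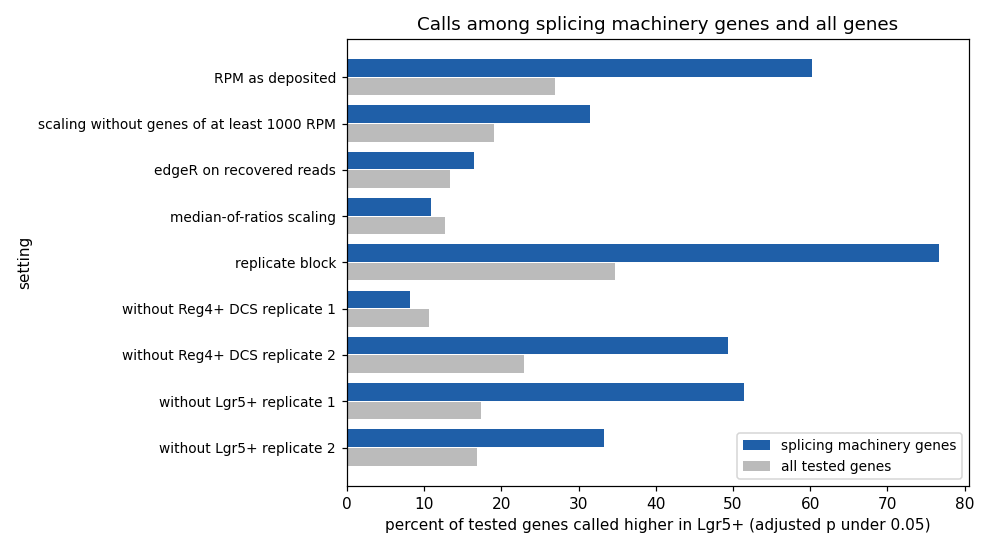
Percent of tested genes called higher in Lgr5+ cells at an adjusted p under 0.05 (x axis) under each scaling, model or left-out library (y axis), for the splicing machinery genes (blue) and all tested genes (grey). The members reach 60.3% against 26.9% on RPM as deposited, and 10.96% against 12.7% after median-of-ratios scaling.

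Promoter windows of the 5 genes called in all of these fits, and of Lsm14b, the member that differed in the other direction after rescaling, are shown to let their upstream sequence be compared. The share of all genes called in all of these fits was not computed, so the members cannot be set against it. Each window is RefSeq sequence of build GRCm38.p6, from 250 bases before to 50 bases after a transcription start. It is read 5′ to 3′ on the gene's strand. Where RefSeq gave 2 windows, as for Lsm2, Lsm7 and Snrpa, the one starting nearest the GENCODE gene start is shown. Lsm2 is at chr17:34981604-34981903 (+), Lsm5 at chr6:56704650-56704949 (-), Lsm7 at chr10:80855160-80855459 (-), Prpf31 at chr7:3629735-3630034 (+), Snrpa at chr7:27196222-27196521 (-) and Lsm14b at chr2:180024737-180025036 (+). Capitals mark a match, on either strand, to one of 6 motifs searched: the ETS motif CCGGAAG, the E-box CACGTG, the NRF1 motif GCATGCGC, the YY1 motif AAGATGGCG, the TATA box TATAAA and the CCAAT box CCAAT.
Lsm2: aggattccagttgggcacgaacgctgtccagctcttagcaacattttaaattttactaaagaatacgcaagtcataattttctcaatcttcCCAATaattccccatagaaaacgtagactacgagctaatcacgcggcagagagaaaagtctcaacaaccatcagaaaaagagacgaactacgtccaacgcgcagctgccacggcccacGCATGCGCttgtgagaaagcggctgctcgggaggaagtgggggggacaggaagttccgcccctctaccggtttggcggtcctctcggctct
Lsm5: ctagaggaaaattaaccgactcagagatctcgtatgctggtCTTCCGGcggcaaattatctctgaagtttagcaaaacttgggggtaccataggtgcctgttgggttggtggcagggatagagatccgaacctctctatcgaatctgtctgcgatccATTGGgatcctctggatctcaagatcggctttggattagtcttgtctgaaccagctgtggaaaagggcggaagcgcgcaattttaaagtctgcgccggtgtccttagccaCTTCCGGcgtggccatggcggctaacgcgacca
Lsm7: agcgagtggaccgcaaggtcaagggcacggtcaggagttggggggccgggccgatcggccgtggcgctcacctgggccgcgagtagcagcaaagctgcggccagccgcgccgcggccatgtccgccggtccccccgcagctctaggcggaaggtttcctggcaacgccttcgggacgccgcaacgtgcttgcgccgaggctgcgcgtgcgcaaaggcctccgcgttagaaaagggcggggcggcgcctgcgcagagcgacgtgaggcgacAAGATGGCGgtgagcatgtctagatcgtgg
Prpf31: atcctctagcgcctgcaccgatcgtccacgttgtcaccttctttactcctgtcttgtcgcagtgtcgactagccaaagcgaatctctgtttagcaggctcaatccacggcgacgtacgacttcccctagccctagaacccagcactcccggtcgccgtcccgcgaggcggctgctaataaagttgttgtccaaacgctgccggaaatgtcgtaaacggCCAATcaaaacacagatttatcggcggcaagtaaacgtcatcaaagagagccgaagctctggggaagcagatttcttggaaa
Snrpa: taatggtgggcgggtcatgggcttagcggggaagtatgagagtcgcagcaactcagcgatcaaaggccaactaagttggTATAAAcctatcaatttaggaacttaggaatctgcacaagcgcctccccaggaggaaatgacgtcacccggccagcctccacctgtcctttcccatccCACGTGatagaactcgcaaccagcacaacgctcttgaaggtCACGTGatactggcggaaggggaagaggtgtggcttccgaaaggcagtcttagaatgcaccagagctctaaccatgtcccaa
Lsm14b: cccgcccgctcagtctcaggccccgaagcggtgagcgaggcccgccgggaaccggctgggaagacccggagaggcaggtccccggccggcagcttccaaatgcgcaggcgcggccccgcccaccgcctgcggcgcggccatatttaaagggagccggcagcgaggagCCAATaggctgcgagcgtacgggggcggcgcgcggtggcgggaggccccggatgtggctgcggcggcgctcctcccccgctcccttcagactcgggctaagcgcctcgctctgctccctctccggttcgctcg

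Snrpa has 2 E-boxes and a TATA box, Lsm5 has 2 ETS motifs and a CCAAT box, Lsm2 an NRF1 motif and a CCAAT box, and Lsm7 a YY1 motif. Prpf31 and Lsm14b each hold a CCAAT box and none of the other motifs. RefSeq gave windows for 64 of the 75 members. The ETS motif was in a window of 31.2% of these genes, 21.9% of tested genes and 9.93% of all genes with a window. A CCAAT box was in 53.1%, 43.1% and 41.1%, an E-box in 14.1%, 12.4% and 8.09%, and a TATA box in 9.38%, 8.48% and 15.7% of the same sets. The YY1 motif was in 4.69%, 4.03% and 1.64% and the NRF1 motif in 9.38%, 6.51% and 3.05%. The median GC content of the windows was 60.8% for members and 61.0% for tested genes. A match describes these letters only.

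Sm and other Snrp genes had the largest median difference of the 6 roles. Of 11 genes, 9 were higher in Lgr5+ cells (26.9% of all genes), and all 11 had both Lgr5+ values above both Reg4+ DCS values (56.2% of all genes). Their median log2 fold change was -1.17 on RPM and -0.66 after median-of-ratios scaling, where 2 were called (12.7% of all genes). On RPM most calls were lost without Reg4+ DCS replicate 1, and about as many genes were called with any other library left out. The 7 genes of the Sm ring, which closes around the U1, U2, U4 and U5 RNAs and is needed for their import and stability, are Snrpb, Snrpd1, Snrpd2, Snrpd3, Snrpe, Snrpf and Snrpg. Summed over the ring, levels were 498 and 657 RPM in Reg4+ DCS and 1036 and 1564 RPM in Lgr5+ cells. Folds lay between 1.88 and 2.57, and all but Snrpd3 were called (26.9% of all genes). The ring was set apart after the values were seen. After median-of-ratios scaling limma called 0 of the 7 (5 at an unadjusted p under 0.05), against 12.7% of all genes. By edgeR 3 were called (13.4% of all genes). On RPM all calls of the ring were lost without Reg4+ DCS replicate 1.

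Snrpf, the member of this role with the highest level, was at 103 and 118 RPM in Reg4+ DCS replicates 1 and 2 and at 203 and 312 RPM in Lgr5+ replicates 1 and 2. The fold was 2.33 (adjusted p = 0.0121), and the Lgr5+ libraries lay further apart than the Reg4+ DCS ones. Snrpd1 was at 60.9 and 95.1 RPM in Reg4+ DCS and at 158 and 244 RPM in Lgr5+ cells, a 2.57-fold difference (log2 fold change of -1.35, SE 0.31, adjusted p = 0.0128). In every ring gene Lgr5+ replicate 2 was the highest of the 4 libraries. Snrpd3 showed it most, with 53.3 and 74.2 RPM in Reg4+ DCS and 91.1 and 198 RPM in Lgr5+ cells, and it missed the threshold (adjusted p = 0.0534). Snrpb, which shares the B position of the ring with its paralog Snrpn (not analysed here), was at 97.2 and 125.7 RPM in Reg4+ DCS and at 171 and 248 RPM in Lgr5+ cells, 1.88-fold apart.

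The other Snrp genes encode proteins particular to U1 or U2. Snrpa encodes U1-A, which binds a stem loop of U1 RNA. It was at 20.3 and 22.3 RPM in Reg4+ DCS and at 67.2 and 54.1 RPM in Lgr5+ cells, a 2.85-fold difference (log2 fold change -1.46, SE 0.26, adjusted p = 0.00447). With any 1 library left out the fold was 2.54 to 3.16. These values rest on 140 and 29 reads in the parts of Reg4+ DCS replicate 1, on 65 and 56 in those of replicate 2, and on 350 and 430 reads in the Lgr5+ libraries. Its paralog Snrpb2, which encodes U2-B″ (B double prime) of the U2 snRNP, was at 56.2 and 58.6 RPM in Reg4+ DCS and at 119 and 106 RPM in Lgr5+ cells, 1.96-fold apart (adjusted p = 0.0141). Snrpa1, the partner of Snrpb2 in U2, was 2.61-fold higher in Lgr5+ cells. Snrpc, of U1, was at 40.1 and 38.5 RPM against 54.6 and 67.4 RPM and was not called (adjusted p = 0.0824).

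**Figure D3:**
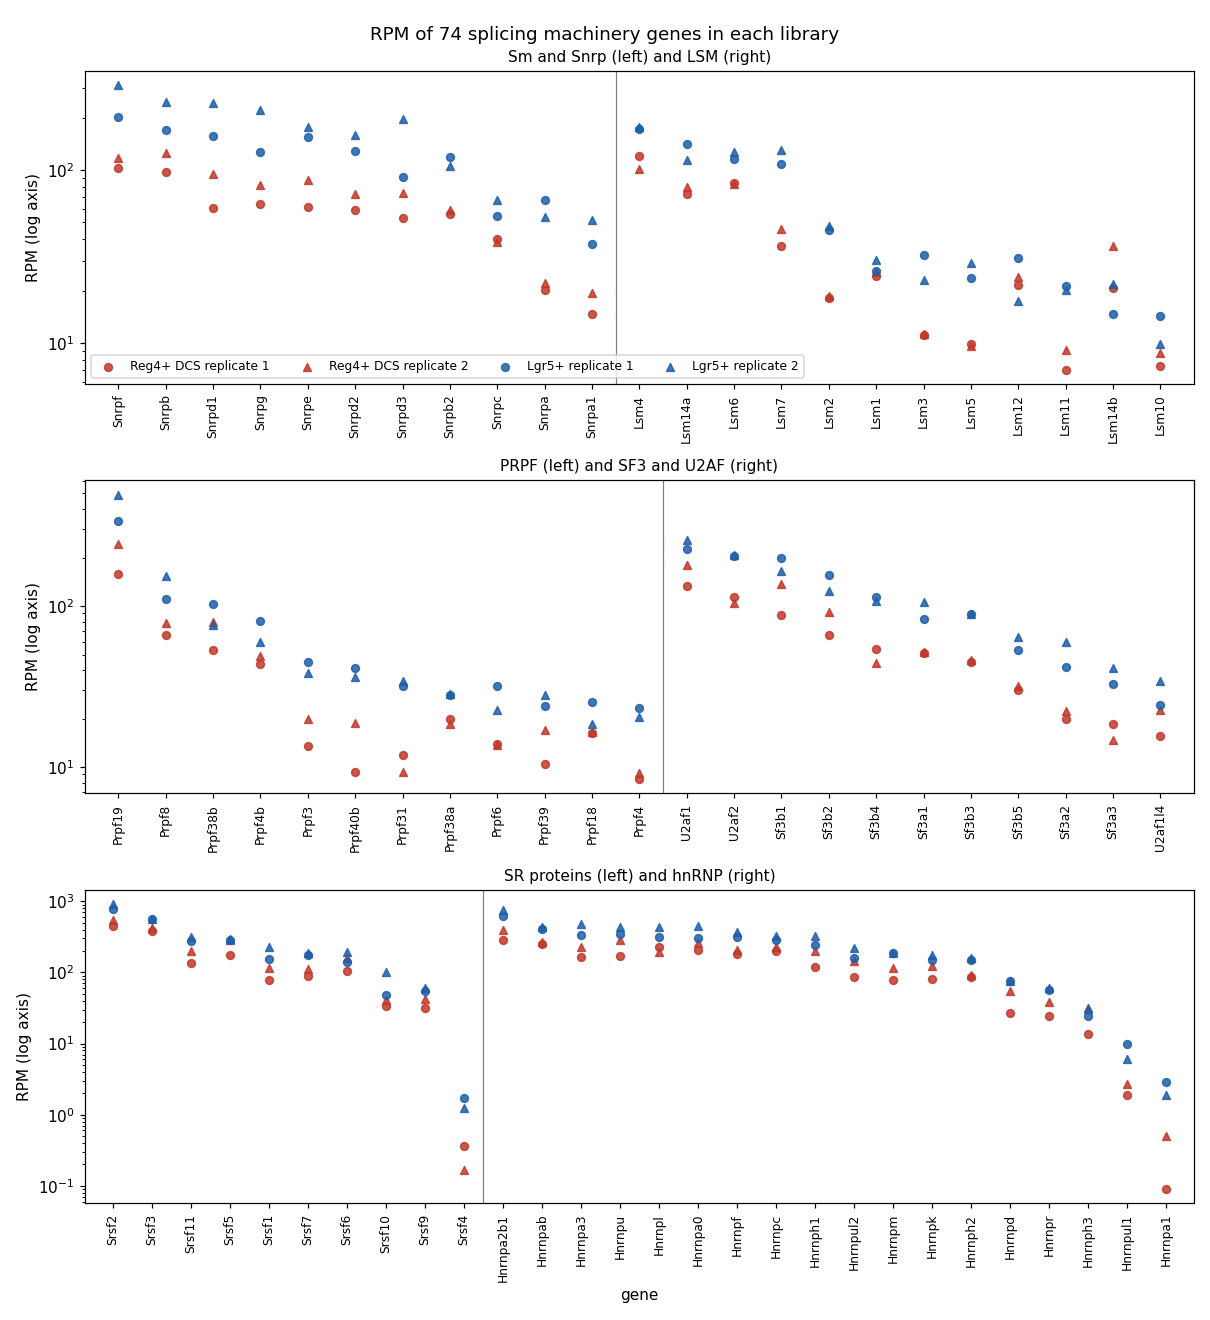
RPM of 74 of the 75 genes (log axis) in the 4 libraries, ordered within each role by the Lgr5+ mean (x axis), with Reg4+ DCS in red, Lgr5+ in blue, circles for replicate 1 and triangles for replicate 2. Both blue symbols lie above both red ones for 66 of the 72 tested genes drawn, Lsm14b has its highest value in red, and Srsf4 and Hnrnpa1 lie far below the other members of their roles.

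LSM proteins form rings like those of the Sm proteins, or serve outside splicing. Of 12 genes 7 were higher in Lgr5+ cells (26.9% of all genes), with a median log2 fold change of -0.70. After median-of-ratios scaling 3 were higher in Lgr5+ cells (12.7% of all genes) and 1 in Reg4+ DCS (15.6%). Fewer were called with any library left out. LSM2 to LSM8 form the ring on the 3′ end of U6 RNA, a group set apart after the values were seen. Of its 6 genes analysed here 5 were higher in Lgr5+ cells (26.9% of all genes), with folds of 1.46 to 2.91 over the 6. Of these genes 3 were called after rescaling (12.7% of all genes) and 3 by edgeR (13.4% of all genes). With any library left out fewer were called than on all libraries. Lsm8 is not analysed here.

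Lsm7 was at 36.5 and 45.9 RPM in Reg4+ DCS and at 109 and 131 RPM in Lgr5+ cells, a 2.91-fold difference (log2 fold change -1.52, SE 0.25, adjusted p = 0.00319). It had the smallest adjusted p of all members, and its Lgr5+ values rest on 566 and 1045 reads. Lsm5 was at 9.93 and 9.61 RPM in Reg4+ DCS and at 23.8 and 29.3 RPM in Lgr5+ cells (2.72-fold), and Lsm2 at 18.2 and 18.7 RPM against 45.3 and 47.9 RPM (2.52-fold). In both genes the replicates differed far less than the groups. Lsm5 only just passed after median-of-ratios scaling (limma, adjusted p = 0.0464) and by edgeR (adjusted p = 0.0482). Its Reg4+ DCS values rest on 63 and 16 reads in the parts of replicate 1 and on 27 and 25 in those of replicate 2. Lsm4, the LSM gene with the highest level, was at 120.4 and 102 RPM in Reg4+ DCS and at 172 and 179 RPM in Lgr5+ cells, 1.58-fold apart, and only just passed the threshold (adjusted p = 0.0498). Leaving out any library ended that call.

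Among the 6 other LSM genes 2 were higher in Lgr5+ cells (26.9% of all genes), and fewer were called with any library left out. Lsm1, which takes the place of Lsm8 in the cytoplasmic ring that promotes mRNA decapping, was at 24.6 and 25.7 RPM in Reg4+ DCS and at 26.1 and 30.4 RPM in Lgr5+ cells (log2 fold change of -0.16, SE 0.26, adjusted p = 0.652), and the sign turned after median-of-ratios scaling (0.33). Lsm12 had overlapping groups, with 21.9 and 24.0 RPM against 31.3 and 17.6 RPM, and its log2 fold change went from -0.04 to 0.45 after that scaling. Of Lsm10 and Lsm11, which replace 2 Sm proteins in the U7 snRNP of histone mRNA processing, Lsm11 was 2.57-fold higher in Lgr5+ cells and Lsm10 was not called (adjusted p = 0.241).

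Lsm14a and Lsm14b encode close paralogs, RNA-binding proteins of cytoplasmic P-bodies, and their values ran in opposite directions. Lsm14a was at 73.2 and 79.6 RPM in Reg4+ DCS and at 142 and 116 RPM in Lgr5+ cells, 1.68-fold higher in Lgr5+ (adjusted p = 0.0396), a call that any left-out library ended and that rescaling also ended (adjusted p = 0.445). Lsm14b was at 20.8 and 36.7 RPM in Reg4+ DCS and at 14.8 and 21.998 RPM in Lgr5+ cells, so that the groups overlapped. Its log2 fold change on RPM was 0.59 (SE 0.35, adjusted p = 0.222), and 1.07 after median-of-ratios scaling (adjusted p = 0.0345). The edgeR value was 1.08 (adjusted p = 0.0402). The difference between the paralogs was not tested.

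PRPF genes, named after yeast precursor RNA processing mutants, encode both core and accessory factors. Of 13 genes 7 were higher in Lgr5+ cells (26.9% of all genes), with a median log2 fold change of -0.91, and 3 after median-of-ratios scaling (12.7% of all genes). On RPM fewer were called with any library left out, and most calls were lost without Reg4+ DCS replicate 1. The tri-snRNP genes are Prpf3, Prpf4 and Prpf31 of the U4/U6 part and Prpf6 and Prpf8 of the U5 part. All 5 were higher in Lgr5+ cells (26.9% of all genes), with folds of 1.82 to 3.12. After rescaling 2 of the 5 were called (12.7% of all genes). On RPM fewer were called with any library left out, and fewest without Reg4+ DCS replicate 1. Of the other 8 PRPF genes 2 were higher in Lgr5+ cells (25%, against 26.9% of all genes). This split was chosen after the values were seen.

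Prpf31, which holds the U4/U6 and U5 parts together, was at 11.9 and 9.28 RPM in Reg4+ DCS and at 31.9 and 34.2 RPM in Lgr5+ cells. The fold was 3.12 (log2 fold change -1.56, SE 0.28, adjusted p = 0.00513), the largest among the members past the filter apart from Hnrnpul1. These levels rest on 79 and 18 reads in the parts of Reg4+ DCS replicate 1, 25 and 25 in those of replicate 2, and 166 and 272 reads in the Lgr5+ libraries. Prpf8, the protein at the catalytic centre, was at 66.4 and 78.9 RPM in Reg4+ DCS and at 111 and 154 RPM in Lgr5+ cells, 1.82-fold apart (adjusted p = 0.0348). Prpf19, a ubiquitin ligase that activates the spliceosome, had the highest level of the role, at 158 and 243 RPM in Reg4+ DCS and at 337 and 491 RPM in Lgr5+ cells (2.07-fold, adjusted p = 0.0274).

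Prpf40b encodes a U1-associated protein that links the ends of the intron. It was at 9.31 and 18.9 RPM in Reg4+ DCS and at 41.5 and 36.5 RPM in Lgr5+ cells, 2.76-fold higher in Lgr5+ cells (adjusted p = 0.0158) and 4.19-fold without Reg4+ DCS replicate 2. Prpf18, Prpf38a, Prpf38b, Prpf39 and Prpf4b were not called, with folds of 1.34 to 1.90, and the log2 fold changes of Prpf18 and Prpf38b went from -0.38 and -0.43 to 0.10 and 0.069 after median-of-ratios scaling.

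**Figure D4:**
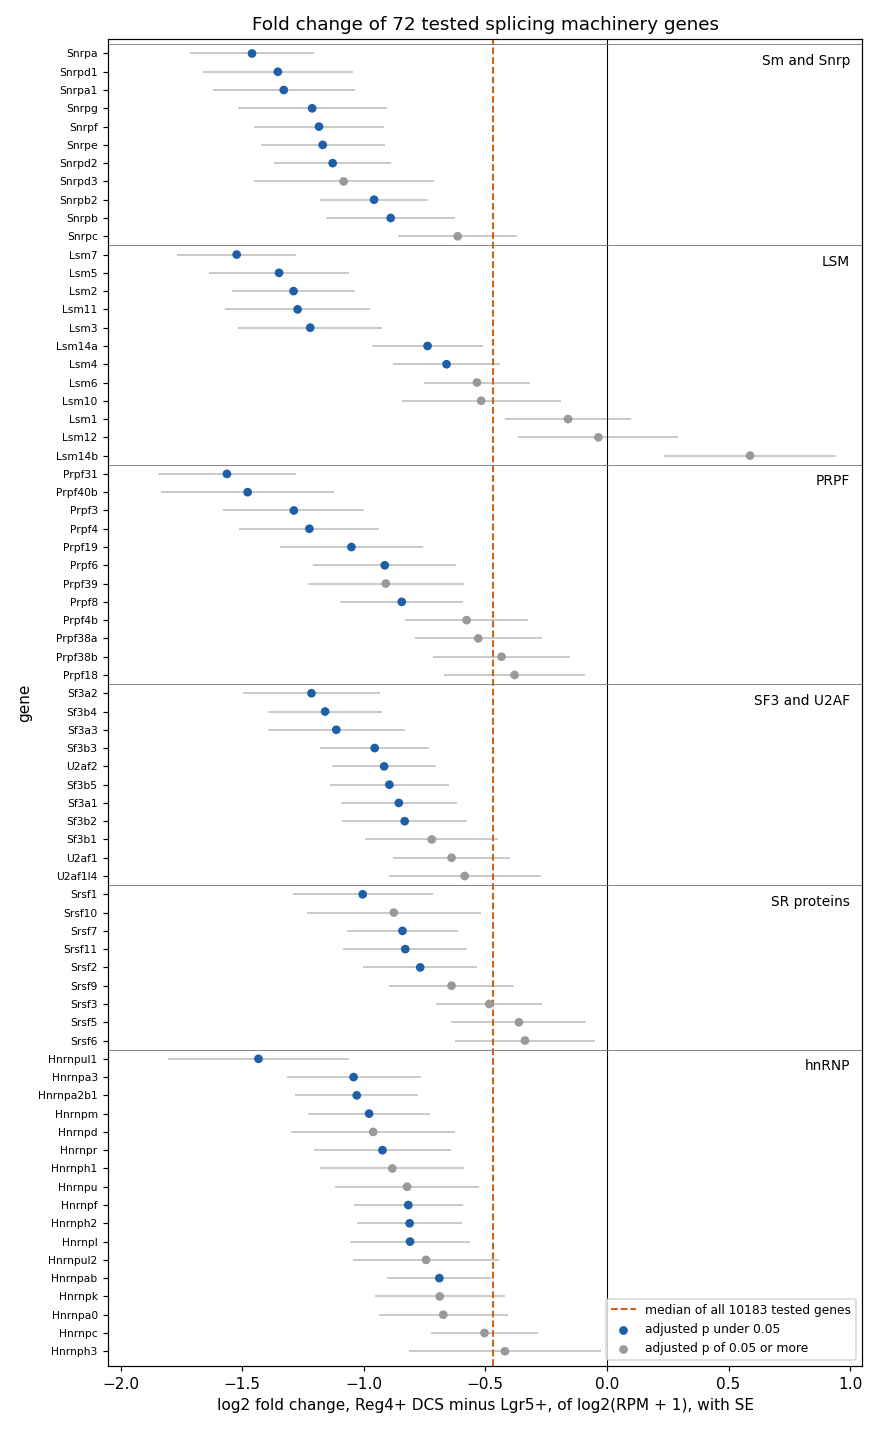
Log2 fold change, Reg4+ DCS minus Lgr5+, of log2(RPM + 1) with its standard error (x axis) for 72 of the 73 tested genes by role (y axis), in blue where the adjusted p was under 0.05, with a dashed line at the median of all tested genes (-0.47). In this plot 64 genes lie left of the dashed line and Lsm14b alone lies right of 0.

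The SF3 and U2AF genes serve the recognition of the branch point and the 3′ splice site. Of 11 genes 8 were higher in Lgr5+ cells (26.9% of all genes), with a median log2 fold change of -0.89, and all 11 had both Lgr5+ values above both Reg4+ DCS values (56.2% of all genes). After median-of-ratios scaling limma called 0 (2 at an unadjusted p under 0.05), against 12.7% of all genes, and edgeR called 0, against 13.4%. On RPM fewer were called with any library left out, and most calls were lost without Reg4+ DCS replicate 1. All 3 SF3A genes and 4 of 5 SF3B genes were called (26.9% of all genes), with folds of 1.62 to 2.42 over the 8. The split by complex was chosen after the values were seen. SF3A lost all its calls when Reg4+ DCS replicate 1 or Lgr5+ replicate 2 was left out, and most of them without Reg4+ DCS replicate 2. SF3B lost most of its calls without Reg4+ DCS replicate 1.

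Sf3b4, an SF3B subunit that contacts the RNA upstream of the branch point, was at 54.3 and 44.1 RPM in Reg4+ DCS and at 114 and 107 RPM in Lgr5+ cells, a 2.25-fold difference (log2 fold change -1.16, SE 0.23, adjusted p = 0.00797). Sf3a2 was at 19.8 and 22.4 RPM in Reg4+ DCS and at 41.9 and 60.2 RPM in Lgr5+ cells, 2.42-fold apart. In both the lower Lgr5+ value was well above the higher Reg4+ DCS value. Sf3b1, which clamps the branch point helix, was at 87.6 and 138 RPM against 199.8 and 165 RPM and was not called (adjusted p = 0.0734).

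U2AF reads the end of the intron, its large subunit U2af2 binding the pyrimidine tract and its small subunit U2af1 the AG. U2af2 was at 114 and 104 RPM in Reg4+ DCS and at 205 and 208 RPM in Lgr5+ cells, 1.89-fold higher in Lgr5+ cells (adjusted p = 0.0140). U2af1, the member of the role with the highest level, was at 133 and 180.3 RPM in Reg4+ DCS and at 226 and 258 RPM in Lgr5+ cells (1.55-fold, adjusted p = 0.0718). Its paralog U2af1l4 was at 15.7 and 22.6 RPM against 24.2 and 34.2 RPM (1.52-fold, adjusted p = 0.174). Folds of the 2 small subunit genes were alike in size, and neither was called.

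SR proteins bind exonic enhancers through RNA recognition motifs and act through a tail rich in arginine and serine. Of 9 genes tested, 4 were higher in Lgr5+ cells (Srsf1, Srsf2, Srsf7 and Srsf11), against 26.9% of all genes, with a median log2 fold change of -0.77. After median-of-ratios scaling limma called 0 (0 at an unadjusted p under 0.05), against 12.7% of all genes, and edgeR called 0, against 13.4%. The 4 calls on RPM were lost without Reg4+ DCS replicate 1 or without Lgr5+ replicate 2. About as many genes were called without another library. In all 9 replicate 2 exceeded replicate 1 in both groups. Srsf2, which binds exonic enhancers and had the highest level of all 75 members, was at 449 and 539 RPM in Reg4+ DCS and at 777 and 906 RPM in Lgr5+ cells (1.70-fold, adjusted p = 0.0374).

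The paralogs Srsf1 and Srsf9 have the same domain layout. Srsf1 was at 77.5 and 114 RPM in Reg4+ DCS and at 156 and 230.3 RPM in Lgr5+ cells, 2.02-fold apart (adjusted p = 0.0299). Srsf9 was at 31.5 and 42.4 RPM against 54.2 and 60.8 RPM, 1.56-fold apart, and was not called (adjusted p = 0.0871). Srsf3 and Srsf7, small SR proteins that also link splicing to RNA export, were 1.40-fold (adjusted p = 0.117) and 1.79-fold (adjusted p = 0.0244) higher in Lgr5+ cells. Srsf7 was at 89.9 and 112 RPM against 177 and 185 RPM, and Srsf3 at 381 and 424 RPM against 556 and 569 RPM. Both Lgr5+ values were thus the higher ones in either gene, as in 56.2% of all tested genes. The log2 fold change of Srsf3 went from -0.48 to 0.03 after median-of-ratios scaling.

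Srsf4, Srsf5 and Srsf6 are the longer SR proteins with a second RNA-binding domain. Srsf5 was at 175 and 290.0 RPM in Reg4+ DCS and at 281 and 299 RPM in Lgr5+ cells, and Srsf6 at 104 and 162 RPM against 139.8 and 192 RPM. Both overlapped between the groups, since Reg4+ DCS replicate 2 exceeded Lgr5+ replicate 1 (adjusted p = 0.330 and 0.380). Their log2 fold changes were -0.36 and -0.34 on RPM, and 0.15 and 0.17 after median-of-ratios scaling. Srsf4 was barely detected, at 0.362 and 0.166 RPM in Reg4+ DCS and 1.73 and 1.26 RPM in Lgr5+ cells. That is 4 and 1 reads, all in 1 part of each Reg4+ DCS column and 0 in the other, and 9 and 10 reads in the Lgr5+ libraries, so it was not tested.

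Of 17 hnRNP genes tested, 9 were higher in Lgr5+ cells (26.9% of all genes), with a median log2 fold change of -0.82. After median-of-ratios scaling limma called 0 (1 at an unadjusted p under 0.05), against 12.7% of all genes, and edgeR called 0 (2 at an unadjusted p under 0.05), against 13.4%. On RPM all calls were lost without Reg4+ DCS replicate 1 and most without Lgr5+ replicate 2. About as many genes were called without another library. Hnrnpa2b1, which binds and packages nascent transcripts, had the highest level of the role, at 284 and 389 RPM in Reg4+ DCS and at 613 and 752 RPM in Lgr5+ cells (2.03-fold, log2 fold change -1.03, SE 0.25, adjusted p = 0.0174). Its relative Hnrnpa3 was at 163 and 228 RPM against 331 and 477 RPM (2.07-fold, adjusted p = 0.0224), and Hnrnpa0 at 205 and 259 RPM against 304 and 446 RPM (1.62-fold, adjusted p = 0.0808). In all 3 both Lgr5+ values were the higher ones, as in 56.2% of all tested genes.

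Hnrnpa1, the best known splicing repressor of this family, stood out by its low level. It was at 0.0905 and 0.499 RPM in Reg4+ DCS and at 2.88 and 1.89 RPM in Lgr5+ cells, or 1 and 3 reads, in 1 part of each column and 0 in the other, against 15 and 15 reads. It was therefore below the filter and not tested. Transcripts of 8 annotated pseudogenes match Hnrnpa1 at 95% identity or more over at least 300 bases, and how reads that match several loci were assigned is not stated in the sources used here. The pseudogene Gm5643, 98.7% identical over 955 bases, has an entry on chromosome X at 6.28 and 4.005 RPM in Reg4+ DCS and at 15.6 and 9.43 RPM in Lgr5+ cells. The pseudogene's entry was thus above that of Hnrnpa1 in every library, and the value of Hnrnpa1 itself is uncertain.

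The Hnrnph genes and Hnrnpf encode proteins that bind runs of G. Hnrnpf was at 183 and 206 RPM in Reg4+ DCS and at 315 and 374 RPM in Lgr5+ cells (1.77-fold, adjusted p = 0.0255), and Hnrnph2 at 85.4 and 91.9 RPM against 152 and 161 RPM (1.76-fold, adjusted p = 0.0231). Hnrnph1 was at 118 and 198 RPM against 247 and 324 RPM (1.81-fold, adjusted p = 0.0504) and missed the threshold. Hnrnph3 had overlapping groups, at 13.4 and 30.7 RPM in Reg4+ DCS and 24.0 and 31.7 RPM in Lgr5+ cells, and its log2 fold change went from -0.42 to 0.07 after median-of-ratios scaling.

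Hnrnpd, which binds AU-rich elements of unstable mRNAs, was at 27.1 and 55.4 RPM in Reg4+ DCS and at 76.8 and 76.2 RPM in Lgr5+ cells (adjusted p = 0.0582). Its relative Hnrnpab was at 254 and 264 RPM against 404 and 434 RPM, 1.62-fold higher in Lgr5+ cells (adjusted p = 0.0389), and lost its call with any library left out. Hnrnpl, which binds CA repeats, was at 226 and 196 RPM against 313 and 438 RPM (1.78-fold, adjusted p = 0.0372). Hnrnpdl and Hnrnpll are not analysed here. In Hnrnpd, as in 16 of the 17 tested hnRNP genes, Reg4+ DCS replicate 1 was below replicate 2.

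Hnrnpu and its relatives Hnrnpul1 and Hnrnpul2 are large nuclear proteins that bind chromatin-associated RNA. Hnrnpul1 had the largest fold of all tested members, 3.49, but at low levels, with 1.89 and 2.74 RPM in Reg4+ DCS and 9.99 and 6.16 RPM in Lgr5+ cells (log2 fold change -1.43, SE 0.37, adjusted p = 0.0210). It passed the filter only through its Lgr5+ values, its Reg4+ DCS values rest on 15 and 2 reads in the parts of replicate 1 and 14 and 2 in those of replicate 2, and it failed the filter when either Lgr5+ library was left out. In the 2 fits that tested it, its adjusted p was 0.119 (Reg4+ DCS replicate 1 left out) and 0.0447 (replicate 2 left out). Hnrnpu was at 168 and 288 RPM against 349 and 434 RPM (adjusted p = 0.0627) and Hnrnpul2 at 87.4 and 144 RPM against 161 and 222 RPM (adjusted p = 0.0859). Neither was called. In both genes the 2 Lgr5+ values were the higher ones, as in 56.2% of all tested genes.

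**Figure D5:**
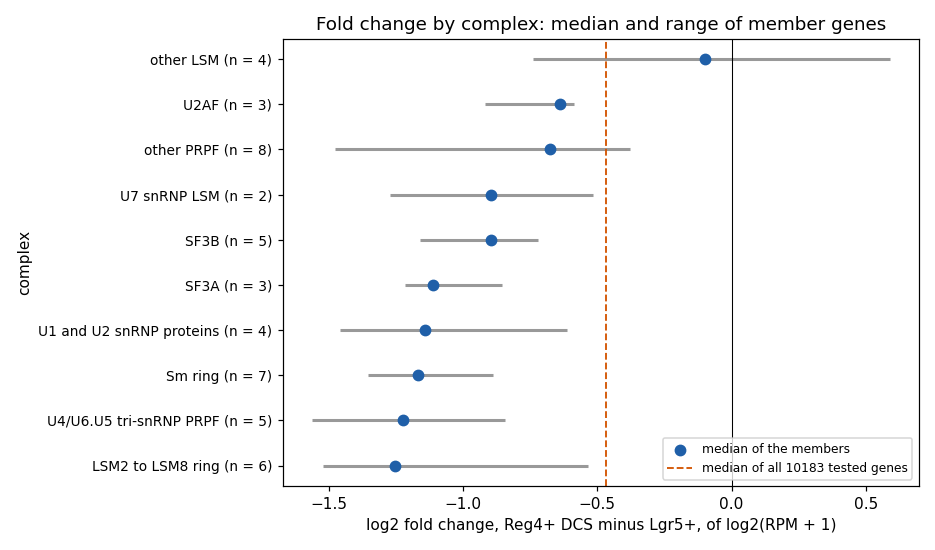
Median (points) and range (bars) of the log2 fold change, Reg4+ DCS minus Lgr5+, of log2(RPM + 1) (x axis) over the members of each complex (y axis), with a dashed line at the median of all tested genes (-0.47). The Sm ring, the LSM2 to LSM8 ring, the tri-snRNP genes and SF3A have medians of -1.17, -1.25, -1.22 and -1.11, and the other LSM genes one of -0.10. The grouping by complex was chosen after the values were seen.

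Read assignment limits some of these values. By sequence, 23 of the 75 members have a near-identical match in another annotated gene (at least 95% over 300 bases). For 3 of them, Hnrnpa1, Hnrnpa3 and Hnrnpm, the matching gene is an entry of the table. The copy of Hnrnpa3, Gm6793, was at 1.34 RPM or less in every library. March2, the match of Hnrnpm, overlaps it on the same strand, so this match need not be a copy elsewhere. It was at 17.1 to 21.5 RPM against 78.6 to 189.6 RPM for Hnrnpm. In all, 13 members overlap another gene of the table, and whether counting used the strand is not stated in the sources used here. Snrpa overlaps the antisense gene BC024978, which was at 0.666 to 2.69 RPM. Srsf4 overlaps the antisense Gm12992, at 1.44 and 1.15 RPM in Reg4+ DCS and 1.92 and 0.126 RPM in Lgr5+ cells. Gm12992 was above Srsf4 in both Reg4+ DCS libraries, close to it in Lgr5+ replicate 1 and below it in Lgr5+ replicate 2. For U2af1l4 the antisense Psenen was higher than the member, at 121 to 144 RPM.

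The other genes of the pathway were tested in the same fit. Of 185 genes in 7 lists, 181 were in the table and 174 were tested. Of these limma called 68 higher in Lgr5+ cells (39.1%, against 26.9% of all genes) and 0 in Reg4+ DCS (7.18% of all genes). At an unadjusted p under 0.05 the counts were 101 and 1, with a median log2 fold change of -0.75. After median-of-ratios scaling 14 were higher in Lgr5+ cells (8.05%, against 12.7% of all genes) and 2 in Reg4+ DCS (15.6% of all genes), and by edgeR 15 (8.62%, against 13.4%) and 1 (13.7% of all genes). The test called 9 of 174 without Reg4+ DCS replicate 1 (5.17%, against 10.6% of all genes), and without Lgr5+ replicate 2 it called 44 of 172 (25.6%, against 16.8%). The share of these genes was thus above that of all genes on RPM, and below it after rescaling, by edgeR and without Reg4+ DCS replicate 1. By list, 16 of 44 further snRNP and recognition factors, 14 of 34 PRP19 and catalytic step factors and 5 of 16 exon junction and SR-related genes were higher in Lgr5+ cells. So were 20 of 44 other RNA-binding regulators, 2 of 9 SR protein kinases, 7 of 17 snRNP assembly genes and 4 of 10 genes of nonsense-mediated decay. Against the 26.9% of all genes, the share was 22.2% of the kinases and 31.2% of the exon junction and SR-related genes, and between 36.4% and 45.5% in the other 5 lists. After rescaling, limma's counts were 2, 1, 2, 5, 1, 3 and 0 in the same order, with 0 genes of nonsense-mediated decay at an unadjusted p under 0.05, and 0 called by edgeR.

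Snrnp25, a protein of the minor U11/U12 snRNP, differed most. It was at 18.9 and 17.6 RPM in Reg4+ DCS and at 157 and 75.4 RPM in Lgr5+ cells, 6.38-fold higher in Lgr5+ cells (log2 fold change -2.52, SE 0.35, adjusted p = 0.00170), and 4.14-fold without Lgr5+ replicate 1. The tri-snRNP cyclophilin Ppih was at 6.69 and 6.27 RPM against 21.9 and 22.8 RPM (3.45-fold), with replicates close in both groups. Both kept an adjusted p under 0.05 after median-of-ratios scaling, by edgeR and in each of the 4 fits without a library.

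Smn1 encodes the survival motor neuron protein, whose complex loads the Sm ring onto snRNAs. It was at 13.6 and 22.3 RPM in Reg4+ DCS and at 53.2 and 49.4 RPM in Lgr5+ cells, a 2.85-fold difference (log2 fold change of -1.50, SE 0.30, with an adjusted p of 0.00789; 0.0177 after median-of-ratios scaling). Gemin5, the subunit of that complex that recognises snRNAs, was at 7.69 and 11.1 RPM against 22.9 and 32.3 RPM (2.94-fold, adjusted p = 0.0117, or 0.0721 without Reg4+ DCS replicate 1 and 0.0511 without Lgr5+ replicate 2). Ilf2, which encodes a protein of a heterodimer that binds double-stranded RNA, was 3.65-fold higher in Lgr5+ cells, and was called under both scalings and in all 4 fits without a library. It was at 17.4 and 16.5 RPM against 48.6 and 75.2 RPM.

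The kinases that phosphorylate SR proteins in the cytoplasm, Srpk1 and Srpk2, were 2.50-fold and 2.52-fold higher in Lgr5+ cells (adjusted p = 0.0113 and 0.0229). Without Reg4+ DCS replicate 1 their adjusted p-values were 0.0673 and 0.104, and Srpk2 was 4.002-fold apart without Reg4+ DCS replicate 2. Acin1 and Pnn, proteins that join the exon junction complex, were 2.54-fold and 2.53-fold higher in Lgr5+ cells; Pnn was 3.87-fold apart without Reg4+ DCS replicate 2 and had an adjusted p of 0.0831 without replicate 1. Ctnnbl1, of the PRP19 complex, was 2.67-fold higher (adjusted p = 0.0106, or 0.0604 without Reg4+ DCS replicate 1). The cyclophilin Ppie was 2.95-fold higher (adjusted p = 0.0354), and was called in 1 of the 4 fits without a library, with a fold of 1.91 without Lgr5+ replicate 1. Smg6, a factor of nonsense-mediated decay, was 2.00-fold higher (adjusted p = 0.0322), and was called in 1 of the 4 fits without a library.

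Of these genes, Mbnl2 and Bud31 were higher in Reg4+ DCS after median-of-ratios scaling. Mbnl2, a regulator of alternative exons, was at 100.2 and 122 RPM in Reg4+ DCS and at 85.5 and 60.5 RPM in Lgr5+ cells. Both Reg4+ DCS values were the higher ones, as in 16.1% of all tested genes. Its log2 fold change was 0.61 on RPM (SE 0.26, adjusted p = 0.0976) and 1.12 after rescaling (adjusted p = 0.00777, or 0.00980 by edgeR). Bud31, a catalytic step factor, was at 36.6 and 36.2 RPM against 23.4 and 32.4 RPM, with a log2 fold change of 0.39 on RPM (adjusted p = 0.286) and 0.88 after rescaling (adjusted p = 0.0401; 0.0569 by edgeR).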

How the data were processed

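RNA of 4 sorted libraries, 2 of Reg4+ DCS and 2 of Lgr5+ cells, was prepared by CEL-seq and sequenced as paired-end reads, per the labels' protocols. Alignment used BWA 0.6.2-r126, with mm10 as the build, per the submitters' processing notes. The annotation, the counting, its use of strand and of molecular identifiers are not stated in the sources used here, and without such identifiers reads are not independent molecules. The authors deposited RPM for 14519 genes in 4 columns, each summing to 1000000. Both Lgr5+ columns were whole multiples of 1 read, worth 0.192 and 0.126 RPM. The Reg4+ DCS columns were decoded as means of 2 parts, uniquely for 99.9% and 98.6% of genes and for all 75 members. What the parts were is not stated, so each column was 1 replicate.

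Genes with at least 5 RPM in at least 2 libraries were compared by limma 3.58.1 under R 4.3.3 (lmFit, then eBayes with a trend) on log2(RPM + 1), with group as the only term, Benjamini-Hochberg adjustment over 10183 genes and a threshold of 0.05. Adding 1 makes the changes of low genes look smaller, and folds are ratios of mean RPM, Lgr5+ over Reg4+ DCS. The fit was tested on simulated data. Alternatives were median-of-ratios scaling, RPM without genes of at least 1000 RPM, pseudocounts of 0.1 and 5, no filter or a filter of 20 RPM, no variance trend, edgeR 4.0.16 (quasi-likelihood, TMM) on the recovered reads, a replicate block, and leaving out each library. Near-identical matches were found with blastn 2.17.0 between annotated transcripts.

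Named members were, per role, the one with the highest mean RPM and the 2 called with the largest log2 fold change in each direction with groups apart, together with any member called higher in Reg4+ DCS on either scale and sets of paralogs. Of each pathway list the 2 called genes with the largest change in each direction were named. Some genes that these rules name, or that the counts include, are not reported here. Other genes, and the grouping by complex, were chosen after their values were seen. The members and lists were chosen with earlier results of these data known.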

Additional observations from a re-analysis of the deposited data

How the results depend on the processing

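With pseudocounts of 0.1 and 5, no filter, a filter of 20 RPM and no variance trend, between 35 and 46 splicing machinery genes were called, all higher in Lgr5+ cells, against 44. Scaling and model moved the counts further. Median-of-ratios scaling called 9 (8 higher in Lgr5+ cells, 1 in Reg4+ DCS), scaling without genes of at least 1000 RPM 23 (23 and 0), and edgeR on the recovered reads 13 (12 and 1). For all genes, median-of-ratios scaling called 1297 higher in Lgr5+ cells and 1591 in Reg4+ DCS, and edgeR 1362 and 1393, against 2744 and 731 on RPM. For the other splicing genes, median-of-ratios scaling called 16 (14 and 2), scaling without abundant genes 41 (40 and 1) and edgeR 16 (15 and 1), against 68 (68 and 0). Beyond the shift of the typical gene that each scaling sets, the cause was not tested.

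Leaving out 1 library gave 6 to 37 members (6 to 37 higher in Lgr5+ cells, 0 to 0 in Reg4+ DCS), 1419 to 2637 of all genes (1060 to 2288 and 349 to 706) and 9 to 55 other splicing genes (9 to 55 and 0 to 0). The lone library of a group is then assumed to vary like the other group. Of 75 named splicing genes tested, 8 changed sign under an alternative, and 0 of these were called with the other sign. Under median-of-ratios scaling, with or without the block, the log2 fold changes became 0.067 for Hnrnph3, 0.33 for Lsm1, 0.45 for Lsm12, 0.10 for Prpf18, 0.069 for Prpf38b, 0.025 for Srsf3, 0.15 for Srsf5 and 0.17 for Srsf6. By edgeR they were 0.19 for Lsm1, 0.45 for Lsm12, 0.098 for Prpf18, 0.023 for Prpf38b, 0.17 for Srsf5 and 0.13 for Srsf6, and without abundant genes 0.088 for Lsm1 and 0.21 for Lsm12. Without a library, Hnrnph3 ranged from -0.99 to 0.15 and Lsm12 from -0.43 to 0.36.

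Replicate numbers are shared between the groups, but the labels do not say that a number marks 1 round, so they were not taken to pair the libraries. The deviations of replicates 1 and 2 in the 2 groups had a correlation of 0.212 across 10183 genes. With the replicate block, 56 members (34.7% of all genes were higher in Lgr5+ cells), 4444 of all genes (3534 and 910) and 87 other splicing genes were called. The block called 7 of 7 Sm ring genes (6 without it), and 5 with median-of-ratios scaling (0 without it). With median-of-ratios scaling and the block together, 20 members (19 and 1; 16.4% and 19.5% of all genes), 1669 and 1984 of all genes in the 2 directions and 26 other splicing genes (21 and 5) were called.

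With 2 libraries per group, of which the Reg4+ DCS ones are averages of 2 parts, the spread is poorly known, and low members such as Hnrnpa1 and Srsf4 rest on too few reads to compare.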
